A study of Mus musculus with 18 samples.

Results

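The collagen gene family was described in 18 spontaneous mammary tumor libraries of mice. Members were taken by symbol: every gene named Col, a number, the letter a and a number, which gave 44 of the 55450 genes in the files, all annotated as protein coding. Every genotype label carried MMTV-Cre(+), a transgene whose promoter drives Cre recombinase in mammary epithelium, together with Pikca(H1047R, het), the labels' spelling of 1 activated Pik3ca allele. The groups differed in Cbfb, the partner of the RUNX transcription factors: 14 libraries were labelled Cbfb(het), 3 Cbfb(wt) and 1 Cbfb(homo). No group without Cre or without the Pik3ca allele was analysed here, and the labels do not say what was altered in Cbfb, nor give age, sex or batch. The series design states that each tumor came from its own mouse. Tumors are named below by genotype and a number that follows accession order and pairs nothing.

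Libraries Cbfb(het) 10 and Cbfb(het) 14 were nearly identical. The SD of their log2 CPM differences (counts scaled to library size) over genes was 0.135, against 0.442 for the next closest pair, Cbfb(het) 2 and Cbfb(het) 8. Their counts differed by more than sampling noise, with a chi-square per gene of 4.17 against 84.0 for that next pair, and whether they are 1 tumor processed again was not tested. They were counted as 1 tumor, Cbfb(het) 10/14, by their mean, which left 17 tumors: 13 Cbfb(het), 3 Cbfb(wt) and 1 Cbfb(homo). Depth was 33210207 to 40974130 rounded expected counts per library. Cbfb itself was listed at 12.8, 27.7 and 70.9 TPM (lowest, median and highest of the 13 Cbfb(het) tumors), at 35.7, 12 and 22.1 TPM in Cbfb(wt) 1, 2 and 3, and at 10.8 TPM in Cbfb(homo). The Cbfb(het) and Cbfb(wt) ranges overlapped, and Cbfb(homo) lay below both. TPM, a share of all transcripts, is scaled by gene length, so it allows levels of different genes to be compared. The 10 epithelial marker genes, among them Epcam, Cdh1 and Krt8, summed to 134 TPM in Cbfb(wt) 2, 219 in Cbfb(het) 10/14, 774 in Cbfb(het) 1 and 1189 in Cbfb(het) 12, and to between 2775 and 6605 TPM in the others, so markers of the labelled mammary epithelium were low in these 4 tumors.

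Collagens are secreted or membrane proteins in which alpha chains, each from its own gene, wind into a triple helix. Fibrillar collagens form the ropes of connective tissue, which in a tumor are laid down mainly by stromal fibroblasts. Network collagens build the basement membrane on which epithelium and vessels rest. Other classes decorate fibrils, form beaded filaments around cells, or make up cartilage, a tissue not found in the normal mammary gland.

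Promoter sequences of 4 members are shown because the levels of these genes behaved differently from tumor to tumor: Col1a2 and Col3a1 were high in the same tumors, Col10a1 was high in 1 tumor, and Col17a1 kept to another pattern. RefSeq's promoter table (GRCm38.p6) held 38 windows for 35 of the 44 members, and it lacked Col12a1, Col14a1, Col1a1, Col22a1, Col26a1, Col2a1, Col4a3, Col5a2 and Col9a3. Of the 250 bases before each RefSeq start, only the longest stretch outside any annotated exon is printed, at chr6:4505370-4505492 (plus strand) for Col1a2, chr1:45311288-45311537 (plus) for Col3a1, chr10:34389731-34389980 (plus) for Col10a1 and chr19:47692095-47692292 (minus) for Col17a1. Letters are 5′ to 3′ on the gene's strand, and capitals mark matches, on either strand, to any of 4 motifs. The GC box was searched as the letters GGGCGG. The TATA box was searched as the letters TATAAA. The CCAAT box was searched under the letters of its name. The core read by RUNX factors was searched as the letters TGTGGT.
Col1a2: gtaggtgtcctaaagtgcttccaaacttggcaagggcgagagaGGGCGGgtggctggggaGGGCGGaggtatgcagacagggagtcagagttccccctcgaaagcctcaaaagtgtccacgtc
Col3a1: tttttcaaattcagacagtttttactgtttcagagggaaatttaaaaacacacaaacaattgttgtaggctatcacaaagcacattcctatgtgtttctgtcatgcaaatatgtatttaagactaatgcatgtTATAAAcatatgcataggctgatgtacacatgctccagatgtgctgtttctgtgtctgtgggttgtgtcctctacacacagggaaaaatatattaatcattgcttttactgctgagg
Col10a1: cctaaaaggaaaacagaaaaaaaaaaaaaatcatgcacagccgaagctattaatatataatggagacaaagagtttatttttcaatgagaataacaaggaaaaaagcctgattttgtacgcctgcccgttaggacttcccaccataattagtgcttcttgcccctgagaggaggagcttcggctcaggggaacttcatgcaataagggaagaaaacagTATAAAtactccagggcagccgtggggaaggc
Col17a1: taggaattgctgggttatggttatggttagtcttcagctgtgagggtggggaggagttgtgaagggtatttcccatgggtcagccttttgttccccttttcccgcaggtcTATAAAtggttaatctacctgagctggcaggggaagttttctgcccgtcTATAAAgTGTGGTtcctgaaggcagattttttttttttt
The printed bases of Col1a2 held a GC box 205 and another 188 bases before its RefSeq start, and 59.3% of them were G or C. They lie inside the Col1a2 gene span given below, which begins at 4504814, so they are not upstream of the whole annotated gene. Col3a1 held no GC box in this window and a TATA box 117 bases before its start, with 35.2% G or C. Col10a1 had its TATA box 32 bases before the start. The printed bases of Col17a1 had TATA boxes at 140 and 91 bases, and the RUNX core at 84 bases before its start. The full windows of Col1a2 and Col17a1 each held a CCAAT box too, which was not within the printed bases. Over all windows of 250 bases, GC boxes stood in 22 of 38 collagen windows and in 32.7% of the 32851 windows in the table. TATA boxes stood in 5 of 38 and 12.4%, CCAAT boxes in 13 of 38 and 33.8%, and the RUNX core in 3 of 38 and 14%, the 3 being Col17a1, Col18a1 and Col8a1. These matches describe letters only.

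Collagen RNA differed between these tumors far more than most RNA did. Summed over the 44 members, it was 590 TPM in Cbfb(het) 7, the lowest, 1521 TPM at the median and 27103 TPM in Cbfb(het) 10/14, the highest, where it made up 2.71% of all TPM. The span was 45.9-fold. The next highest sums were 23519 TPM in Cbfb(het) 12, 12106 in Cbfb(wt) 2, 6336 in Cbfb(het) 1 and 4931 in Cbfb(homo). These 5 tumors came from all 3 genotypes, and the lowest sums after Cbfb(het) 7 were 626 TPM in Cbfb(het) 8 and 634 TPM in Cbfb(wt) 3. The SD of log2 CPM over tumors reached 1 in 38 of the 43 members that passed the filter on low counts, against 27.6% of all 18375 genes that passed. Its median was 1.61 for members and 0.602 for all genes. In whole-tumor RNA, a change in the number of cells of a type and a change in RNA per cell cannot be told apart.

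**Figure D1:**
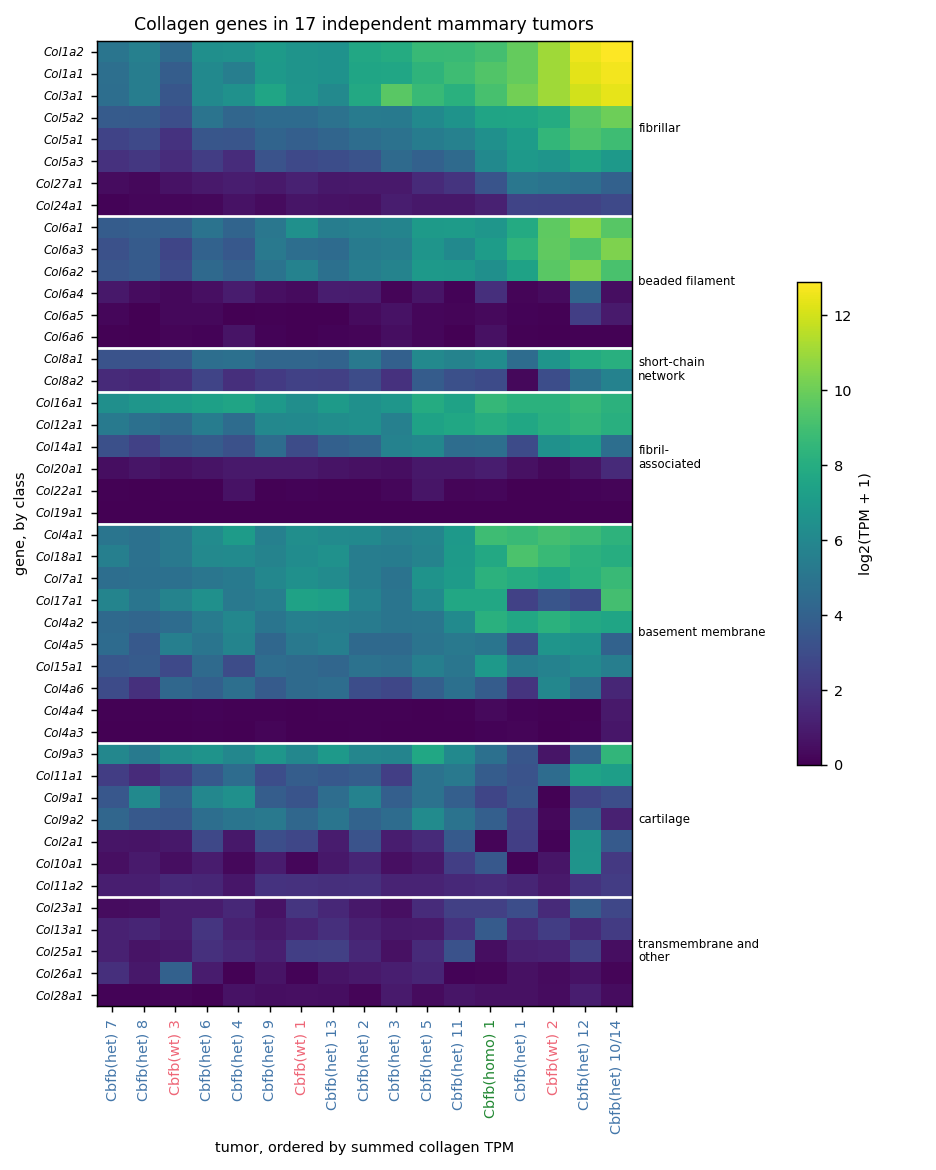
Level of each of the 44 collagen genes (rows, by class) in 17 tumors (columns, ordered by summed collagen TPM), as log2(TPM + 1) in color. Tumor names are blue for Cbfb(het), red for Cbfb(wt) and green for Cbfb(homo); the fibrillar rows brighten from left to right, while the cartilage and transmembrane rows do not follow that order.

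Of the 44 members, 22 were at 1 TPM or more in every tumor, 39 in at least 1 tumor and 5 in none (Col4a3, Col4a4, Col6a6, Col19a1 and Col22a1). A level of 10 TPM was reached somewhere by 33. The number at 1 TPM or more per tumor ran from 28 in Cbfb(het) 8 and Cbfb(wt) 2 to 37 in Cbfb(het) 12. Among the 39 members that reached 1 TPM, the highest level lay in Cbfb(het) 12 for 14 members and in Cbfb(het) 10/14 for 13. The other 12 were highest in Cbfb(wt) 2 (4 members), Cbfb(het) 1 and Cbfb(homo) (2 each), or Cbfb(het) 4, Cbfb(het) 5, Cbfb(het) 11 and Cbfb(wt) 3 (1 each).

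The makeup of the collagen RNA differed between tumors too. Fibrillar genes held 8.84% of the collagen TPM in Cbfb(wt) 3, 42.6% at the median and 78.2% in Cbfb(het) 10/14. Basement membrane genes held 6.18% in Cbfb(het) 12, 24.7% at the median and 39.9% in Cbfb(wt) 1. Cartilage genes held 0.210% in Cbfb(wt) 2, 10.03% at the median and 19.5% in Cbfb(het) 8. The leading gene changed too: it was Col16a1 in Cbfb(het) 4, 6, 7 and 8 and Cbfb(wt) 3, Col17a1 in Cbfb(wt) 1 and Cbfb(het) 13, and Col1a1, Col1a2 or Col3a1 in the other 10 tumors. Each class varied by its own factor: the summed TPM of the highest over the lowest tumor was 378-fold for fibrillar, 131-fold for beaded filament, 11.4-fold for basement membrane and 6.84-fold for fibril-associated genes.

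**Figure D2:**
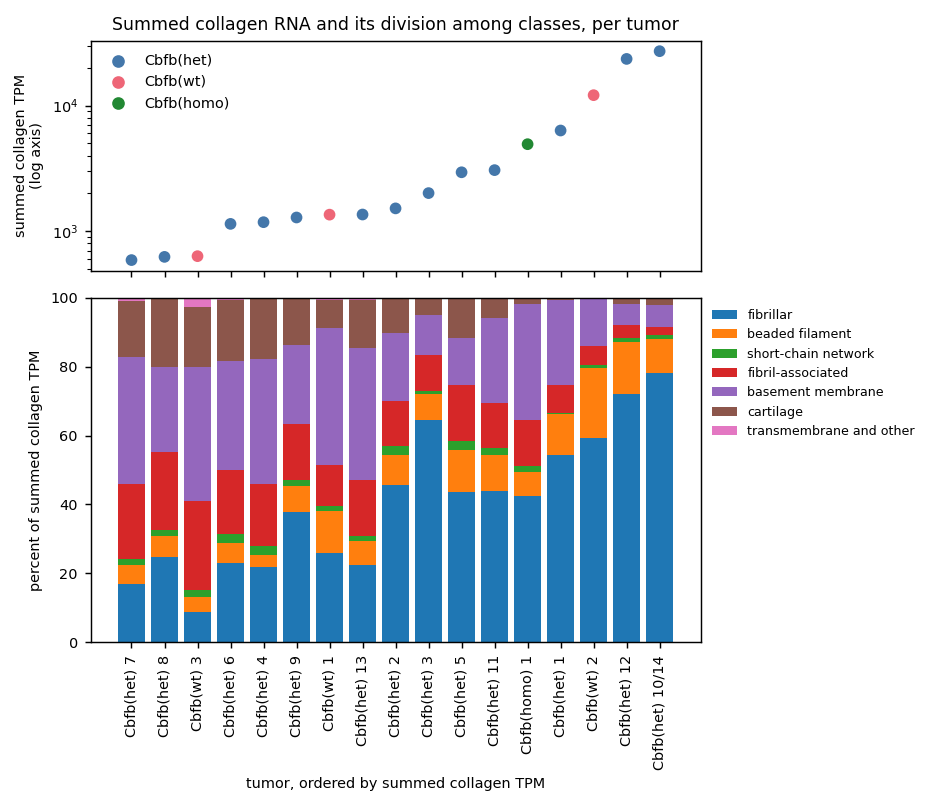
Upper panel, summed collagen TPM of each tumor on a log axis, colored by genotype; lower panel, percent of that sum held by each class. The fibrillar share is 8.84% in Cbfb(wt) 3 and 78.2% in Cbfb(het) 10/14, and the 3 Cbfb(wt) tumors sit at 634, 1356 and 12106 TPM.

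The fibrillar class was the most variable by summed level, and all 8 of its genes had their 4 highest levels in Cbfb(het) 10/14, Cbfb(het) 12, Cbfb(wt) 2 and Cbfb(het) 1. These are also the tumors richest in summed collagen, a sum that fibrillar genes dominate. Col1a1 (ENSMUSG00000001506.10, chromosome 11, 94936224 to 94953042, plus strand, GRCm38) encodes the alpha 1 chain of type I collagen, the main fibril of skin, bone and stroma. Its level was 25.4, 187 and 6586 TPM in the Cbfb(het) tumors (lowest, median, highest, as in all such triplets below), 101, 2147 and 13 TPM in Cbfb(wt) 1, 2 and 3, and 668 TPM in Cbfb(homo). Col1a2 (ENSMUSG00000029661.16, chromosome 6, 4504814 to 4541544, plus strand), the alpha 2 chain, was at 30.7, 214 and 7578 TPM in Cbfb(het), at 100, 2150 and 19.9 TPM in Cbfb(wt) and at 516 TPM in Cbfb(homo). Cbfb(wt) 3 was the lowest of all 17 tumors for both chains and Cbfb(wt) 2 the third highest, so the Cbfb(wt) tumors lay far apart and overlapped the Cbfb(het) range. Col3a1 (ENSMUSG00000026043.18, chromosome 1, 45311538 to 45349706, plus strand), whose type III fibrils mix with type I in pliable tissue, was at 24.6, 218 and 5382 TPM in Cbfb(het), at 105, 2117 and 9.98 TPM in Cbfb(wt) and at 565 TPM in Cbfb(homo). Together these 3 genes held 6.78% of the collagen TPM in Cbfb(wt) 3 and 72.1% in Cbfb(het) 10/14, with a median of 35.5%.

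The minor fibrillar chains, which start fibrils or limit their width, were high in the same 4 tumors at lower levels. Col5a1 was at 5.13, 23.3 and 622 TPM in Cbfb(het), at 13.7, 372 and 2.66 TPM in Cbfb(wt) and at 88.1 TPM in Cbfb(homo). Col5a2 was at 11.4, 38.5 and 1044 TPM in Cbfb(het), at 21.6, 242 and 7.60 TPM in Cbfb(wt) and at 183 TPM in Cbfb(homo). Col5a3 was at 2.06, 8.97 and 182 TPM in Cbfb(het), at 6.25, 103 and 2.09 TPM in Cbfb(wt) and at 69.0 TPM in Cbfb(homo). The groups overlapped for each of these, with Cbfb(wt) 2 high and Cbfb(wt) 3 low. Col27a1, a chain of thin fibrils known from cartilage, differed in its leading tumor: its highest level was 33.7 TPM in Cbfb(het) 1, followed by 28.6 TPM in Cbfb(wt) 2, against a median of 1.04 TPM. It was at 9.15 TPM in Cbfb(homo) and at 1.31 and 0.56 TPM in Cbfb(wt) 1 and 3. Col24a1, another minor fibrillar chain, never passed 6.07 TPM.

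Markers of fibroblasts were highest in tumors with high fibrillar levels. The 16 markers, all tested and 10 of them at 1 TPM or more in every tumor, summed to 348, 883 and 7562 TPM in Cbfb(het), to 848, 11510 and 400 TPM in Cbfb(wt) and to 2379 TPM in Cbfb(homo). The highest sums were those of Cbfb(wt) 2, Cbfb(het) 12 at 7562 and Cbfb(het) 10/14 at 7312 TPM. Postn, a matrix protein of activated fibroblasts, was the most abundant marker by its mean over tumors. In Cbfb(wt) 2, however, S100a4 alone held 7034 of the 11510 TPM and Postn 2000, so the top rank of that tumor rested largely on 1 gene. S100a4 reached at most 1777 TPM in Cbfb(het). The tumors with the highest fibroblast sums had low epithelial sums, as given above. The part of either list in the collagen levels was not tested.

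Type VI collagen, the beaded filament class, is a heterotrimer that forms microfilaments close to cells. Its 3 classical chains were high where the fibrils were high, but the leading tumor differed between chains. Col6a1 was at 12.6, 49.0 and 1534 TPM in Cbfb(het), at 88.8, 833 and 14.3 TPM in Cbfb(wt) and at 108 TPM in Cbfb(homo), with its highest level in Cbfb(het) 12. Col6a2 was at 9.38, 42.5 and 1326 TPM in Cbfb(het), at 51.8, 783 and 6.56 TPM in Cbfb(wt) and at 84.3 TPM in Cbfb(homo), again highest in Cbfb(het) 12. Col6a3, the long alpha 3 chain, was instead highest in Cbfb(het) 10/14, at 8.25, 40.7 and 1333 TPM in Cbfb(het), 24.5, 861 and 5.36 TPM in Cbfb(wt) and 138 TPM in Cbfb(homo). Cbfb(wt) 2 ranked second for all 3 chains, and Cbfb(wt) 3 was the lowest tumor for Col6a2 and Col6a3. The alternative long chains Col6a4, Col6a5 and Col6a6, which lie side by side on chromosome 9 with 28810 and 27917 bp between them, were low in nearly every tumor. Col6a4 stood out in Cbfb(het) 12 at 18 TPM, 7.56-fold over the next tumor, Cbfb(homo) at 2.38 TPM, and its median over tumors was 0.44 TPM. It was at 0.10 to 1.01 TPM in the other Cbfb(het) tumors and at 0.28, 0.28 and 0.20 TPM in Cbfb(wt). Col6a5 was also highest in Cbfb(het) 12, at 4.24 TPM, while Col6a6 did not pass 0.61 TPM anywhere.

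Basement membrane genes spanned less from tumor to tumor than fibrillar genes, as their summed levels above show. Col4a1 (ENSMUSG00000031502.11, chromosome 8, 11198423 to 11312826, minus strand), a chain of the type IV network found in nearly every basement membrane, was at 27.2, 70.8 and 440 TPM in Cbfb(het), at 81.8, 516 and 36.3 TPM in Cbfb(wt) and at 469 TPM in Cbfb(homo). Cbfb(wt) 2 and Cbfb(homo) were the 2 highest of all tumors, and the other Cbfb(wt) tumors lay inside the Cbfb(het) range. Col18a1, whose C-terminal piece is endostatin, was at 27.4, 65.8 and 605 TPM in Cbfb(het), at 76.6, 409 and 36.4 TPM in Cbfb(wt) and at 222 TPM in Cbfb(homo). Its highest level lay in Cbfb(het) 1, and the groups overlapped. Col7a1, the chain of the anchoring fibrils that tie epithelium to stroma, was at 23.8, 62.6 and 421 TPM in Cbfb(het), at 88.3, 198 and 25.9 TPM in Cbfb(wt) and at 311 TPM in Cbfb(homo). Col15a1, found at the outer face of basement membranes, was at 6.85, 24.9 and 70.2 TPM in Cbfb(het), at 20.7, 50.8 and 6.2 TPM in Cbfb(wt) and at 119 TPM in Cbfb(homo), above every other tumor.

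Col17a1 (ENSMUSG00000025064.15, chromosome 19, 47646344 to 47692094, minus strand) encodes a transmembrane collagen of the hemidesmosome, the anchor of basal epithelial cells. It was at 4.58, 50.6 and 518 TPM in Cbfb(het), at 170, 9.46 and 53.2 TPM in Cbfb(wt) and at 210 TPM in Cbfb(homo). Of the 4 collagen-rich tumors, Cbfb(het) 10/14 had the highest Col17a1 of all, whereas Cbfb(het) 1, Cbfb(het) 12 and Cbfb(wt) 2 had the 3 lowest, at 4.58, 6.46 and 9.46 TPM. The 12 basal and myoepithelial markers summed to 12165 TPM in Cbfb(het) 10/14 and to 1527, 1141 and 1740 TPM in those 3 tumors, with the highest sum of 24474 TPM in Cbfb(homo). Krt14 was the most abundant of them, and their part in the Col17a1 levels was not tested. The X-linked chains Col4a5 and Col4a6 form type IV networks of more restricted tissues, and like Col4a1 they were highest in Cbfb(wt) 2. Col4a5 was at 7.22, 22.0 and 92.5 TPM in Cbfb(het), at 36.3, 103 and 46.2 TPM in Cbfb(wt) and at 30.7 TPM in Cbfb(homo). Col4a6 was at 1.60, 11.8 and 25.8 TPM in Cbfb(het), at 21.3, 61.0 and 19.0 TPM in Cbfb(wt) and at 12.3 TPM in Cbfb(homo). All 3 Cbfb(wt) tumors lay above the Cbfb(het) median for both genes, but the ranges overlapped. Col4a3 and Col4a4, the partners of Col4a5 in kidney and lung, stayed under 1 TPM everywhere, with their highest levels of 0.70 and 0.85 TPM in Cbfb(het) 10/14.

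Fibril-associated collagens do not form fibrils themselves but sit on or between them. Col16a1 (ENSMUSG00000040690.15, chromosome 4, 130047840 to 130099283, plus strand) was abundant in every tumor and spanned only 4.74-fold, from 82.7 TPM in Cbfb(wt) 1 to 392 TPM in Cbfb(het) 12. It was at 83.6, 158 and 392 TPM in Cbfb(het), at 82.7, 301 and 133 TPM in Cbfb(wt) and at 381 TPM in Cbfb(homo). Col16a1 was the leading collagen by TPM of the 5 tumors named above. Col12a1, which coats type I fibrils in tissue under load, was at 22.4, 78.5 and 361 TPM in Cbfb(het), at 67.4, 276 and 21.2 TPM in Cbfb(wt) and at 261 TPM in Cbfb(homo). Col14a1, its close relative, was at 4.69, 17.7 and 132 TPM in Cbfb(het), at 7.04, 92.3 and 9.82 TPM in Cbfb(wt) and at 25.5 TPM in Cbfb(homo). The groups overlapped for all 3. Col20a1, Col22a1 and Col19a1 reached at most 1.86, 0.63 and 0.01 TPM, and Col19a1 was the only member to fail the filter on low counts.

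The short-chain network of type VIII collagen, known from vessel walls and the cornea, had a major and a minor chain. Col8a1 was at 8.70, 24.1 and 279 TPM in Cbfb(het), at 18.1, 106 and 10.8 TPM in Cbfb(wt) and at 75.2 TPM in Cbfb(homo). Col8a2 was at 0.20, 4.36 and 50.7 TPM in Cbfb(het), at 4.70, 7.13 and 2.28 TPM in Cbfb(wt) and at 6.71 TPM in Cbfb(homo). Both were highest in Cbfb(het) 10/14. In Cbfb(het) 1, rich in most collagens, Col8a2 had its lowest level.

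Cartilage collagen RNA was present in all tumors, but different genes of the class were high in different tumors. In Cbfb(wt) 2, Col11a1 held 22.9 of the 25.4 TPM of the class, and every other member was under 1 TPM. Col9a3, 1 of the 3 chains of type IX collagen, which decorates type II fibrils, was the most abundant by its mean over tumors. It was at 9.98, 62.5 and 358 TPM in Cbfb(het), at 60.6, 0.63 and 78.5 TPM in Cbfb(wt) and at 25.9 TPM in Cbfb(homo). Col9a1 (ENSMUSG00000026147.16, chromosome 1, 24177610 to 24252684, plus strand) was at 5.16, 13.9 and 87.1 TPM in Cbfb(het), at 9.02, 0.05 and 13.8 TPM in Cbfb(wt) and at 5.50 TPM in Cbfb(homo). All 3 type IX genes had their lowest level in Cbfb(wt) 2, where Col9a2 was at 0.20 TPM. Col9a1 was highest in Cbfb(het) 4, Cbfb(het) 8 and Cbfb(het) 6, at 87.1, 67.3 and 62.2 TPM, tumors with low or middling collagen sums. Col9a2 was highest in Cbfb(het) 5 at 73.7 TPM, and Col9a3 in Cbfb(het) 10/14.

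Col2a1, the main fibril chain of cartilage, and Col10a1 (ENSMUSG00000039462.4, chromosome 10, 34389981 to 34397085, plus strand), the network chain of hypertrophic chondrocytes, were both high in Cbfb(het) 12. Col2a1 was at 97.6 TPM there, 8.47-fold over the next tumor at 11.5 TPM. Over the groups it was at 0.59, 4.25 and 97.6 TPM in Cbfb(het), at 5.75, 0.09 and 0.78 TPM in Cbfb(wt) and at 0.12 TPM in Cbfb(homo). Col10a1 was at 102 TPM in Cbfb(het) 12, 9.34-fold over Cbfb(homo) at 10.9 TPM, with 0.09, 0.88 and 102 TPM in Cbfb(het) and 0.16, 0.65 and 0.37 TPM in Cbfb(wt). Without Cbfb(het) 12, then, neither gene passed 12 TPM in any tumor. Col11a1, which sits in the core of type II fibrils and also joins type V chains, was high in Cbfb(het) 12 and in Cbfb(het) 10/14, at 174 and 146 TPM. It was at 2, 10.5 and 174 TPM in Cbfb(het), at 12.9, 22.9 and 4.06 TPM in Cbfb(wt) and at 12.2 TPM in Cbfb(homo). Its partner Col11a2 stayed between 0.71 and 3.87 TPM in all tumors.

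Other chondrocyte markers were uneven. The 14 markers summed to 29.3, 88.7 and 257 TPM in Cbfb(het), to 130, 52.7 and 50.6 TPM in Cbfb(wt) and to 73.9 TPM in Cbfb(homo), and 2 of them were at 1 TPM or more in every tumor, with Sox9 the most abundant. Acan, the aggregating proteoglycan of cartilage, was highest in Cbfb(het) 10/14 at 134 TPM, and Ucma in Cbfb(het) 12 at 37.7 TPM. Other markers peaked in other tumors: Chad in Cbfb(het) 11 at 45.5 TPM, Snorc in Cbfb(het) 9 at 31.0 and Cnmd in Cbfb(het) 5 at 18.6. Sox9 was highest in Cbfb(wt) 1 at 69.4 TPM. In Cbfb(het) 12, where Col2a1 and Col10a1 peaked, the marker sum was 127 TPM. It was 257 TPM in Cbfb(het) 10/14, 193 in Cbfb(het) 5 and 142 in Cbfb(het) 11. Matn1 was under 0.1 TPM in every tumor. Of the 10 osteoblast markers, Mepe was listed at 0 throughout and Ibsp reached 108 TPM in Cbfb(het) 10/14. Their sum, nearly all Spp1, ran from 819 TPM in Cbfb(het) 12 to 35631 TPM in Cbfb(het) 4 and was 5236, 2768 and 4679 TPM in Cbfb(wt). The part of these lists in the cartilage collagen levels was not tested.

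**Figure D3:**
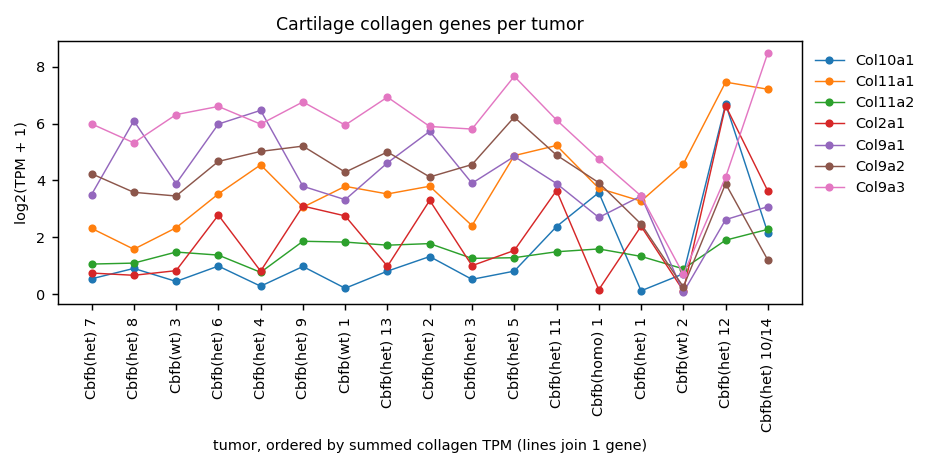
Levels of the 7 cartilage collagen genes, as log2(TPM + 1), in 17 tumors ordered by summed collagen TPM; each line joins the values of 1 gene. Col2a1 and Col10a1 peak in Cbfb(het) 12, and the 3 type IX genes are near 0 in Cbfb(wt) 2.

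The transmembrane and other collagens were low. Col13a1, found at cell contacts and the neuromuscular junction, was at 0.78, 1.54 and 3.77 TPM in Cbfb(het), at 1.40, 4.10 and 1.00 TPM in Cbfb(wt) and at 11.8 TPM in Cbfb(homo), which was 2.87-fold over the next tumor. Col23a1 was at 0.34, 1.69 and 12.9 TPM in Cbfb(het), at 3.01, 1.93 and 0.97 TPM in Cbfb(wt) and at 4.52 TPM in Cbfb(homo). Col25a1, known from amyloid deposits and motor nerves, was at 0.385, 1.66 and 8.57 TPM in Cbfb(het), at 4.30, 1.37 and 0.78 TPM in Cbfb(wt) and at 0.39 TPM in Cbfb(homo). The 3 genes thus peaked in different tumors. Col26a1 (ENSMUSG00000004415.15, chromosome 5, 136741759 to 136883209, minus strand) was at 14.8 TPM in Cbfb(wt) 3, 6.48-fold over the next tumor. It was at 0.05, 0.60 and 2.29 TPM in Cbfb(het), at 0.08 and 0.29 TPM in Cbfb(wt) 1 and 2 and at 0.14 TPM in Cbfb(homo), so the other Cbfb(wt) tumors lay at the low end. Col28a1 did not pass 1.08 TPM.

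Chains that can meet in 1 trimer were compared next. Type I chains kept a steady ratio over a wide range of levels: Col1a2 over Col1a1 in TPM lay between 0.773 in Cbfb(homo) and 2.01 in Cbfb(het) 4, while Col1a1 itself spanned 505-fold. Type IV chains were the steadiest, with Col4a2 over Col4a1 between 0.466 in Cbfb(het) 4 and 0.670 in Cbfb(het) 8 while Col4a1 spanned 19.0-fold. These genes lie head to head on chromosome 8 and overlap by 22 bp, and the strand setting of the counting is not given in the sources used here, so reads in the overlap could be assigned to either. Col6a2 over Col6a1 lay between 0.460 and 0.966, below 1 in all 17 tumors, whereas Col6a3 over Col6a1 ran from 0.276 in Cbfb(wt) 1 to 1.81 in Cbfb(het) 10/14. Cartilage chains did not keep such ratios. Col9a3 over Col9a1 ran from 0.579 in Cbfb(het) 8 to 48.0 in Cbfb(het) 10/14 among the 16 tumors with both at 1 TPM or more, and Col11a2 over Col11a1 from 0.0157 in Cbfb(het) 12 to 0.570 in Cbfb(het) 8 among 15 such tumors.

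Correlations over the 17 tumors were computed for 13 pairs of chains, on log2 CPM, with two-sided permutation tests (100000 resamples) and Benjamini-Hochberg adjustment over the 13 pairs. Col1a1 with Col3a1 and Col2a1 with Col11a1 were paired as neighbours in 1 fibril, and the other pairs as chains of 1 trimer or network. Pearson's r was 0.993 for Col1a1 and Col1a2, 0.966 for Col1a1 and Col3a1, 0.976 for Col5a1 and Col5a2, 0.993 for Col6a1 and Col6a2, 0.965 for Col6a1 and Col6a3 and 0.997 for Col4a1 and Col4a2. Each of these 6 had a permutation p of 1e-05, the smallest that the permutations can give, and an adjusted p of 2e-05. Spearman's rho was 0.963, 0.934, 0.968, 0.988, 0.963 and 0.983, in the same order and with the same p. Without the 2 tumors farthest from the median of the first gene, r was 0.990, 0.946, 0.971, 0.987, 0.963 and 0.996. The order of tumors was thus nearly shared within types I, III, V, VI and the main type IV pair. All points share their tumor, with its fibroblast and epithelial content, and this content was not adjusted for.

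Other pairs were looser. Col4a5 and Col4a6, head to head on the X chromosome with 1308 bp between them, had r = 0.856 (adjusted permutation p = 2e-05), rho = 0.880 (adjusted permutation p = 2e-05) and r = 0.772 without the 2 farthest tumors. Col8a1 and Col8a2 had r = 0.741 (permutation p = 0.00033, adjusted 0.000477), rho = 0.846 (permutation p = 2e-05, adjusted 3.25e-05) and r = 0.527 without the 2 farthest. Leaving out Cbfb(het) 1 alone gave the latter pair r = 0.920. Col2a1 and Col11a1 had r = 0.512 (permutation p = 0.037, adjusted 0.04) and rho = 0.495 (permutation p = 0.0465, adjusted 0.0504), and r = 0.479 without the 2 farthest tumors. This pair rested on few tumors: r was 0.316 (adjusted permutation p = 0.253) without Cbfb(het) 12, and leaving out any of 6 other tumors also took its adjusted p past 0.05. Col11a1 and Col11a2 had r = 0.247 (permutation p = 0.338, adjusted 0.338), rho = 0.0490 (permutation p = 0.854, adjusted 0.854) and r = -0.248 without the 2 farthest.

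For type IX no pooled r is given, because Cbfb(wt) 2 stood apart with all 3 genes near 0, a gap of 53.7% of the range of Col9a1. Over the other 16 tumors, Col9a1 and Col9a2 had r = 0.442 (permutation p = 0.0848, adjusted 0.1) and rho = 0.597 (permutation p = 0.0162, adjusted 0.0191). Col9a1 and Col9a3 had r = 0.375 (permutation p = 0.151, adjusted 0.163) and rho = 0.465 (permutation p = 0.0705, adjusted 0.0763). These values were below those of the type I pair, and the difference between correlations was not tested. Col4a3 and Col4a4, also head to head with 71 bp between them, were under 1 TPM in every tumor and are given no correlation.

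**Figure D4:**
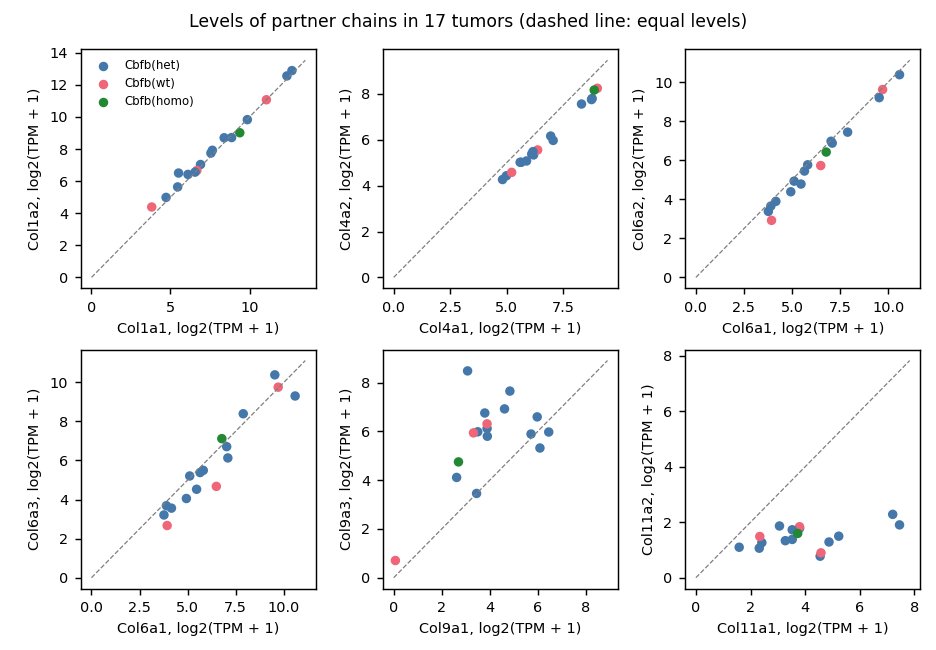
Levels of 6 pairs of partner chains in 17 tumors, both axes as log2(TPM + 1), with a dashed line at equal levels and tumors colored by genotype. Points of the type I, IV and VI pairs lie along a line, with r of 0.993 for Col1a1 and Col1a2 and 0.997 for Col4a1 and Col4a2 on log2 CPM, while the Col9a1 and Col9a3 points and the Col11a1 and Col11a2 points scatter.

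No collagen gene was called different between Cbfb(het) and Cbfb(wt) tumors. None of the 43 tested members passed an adjusted p of 0.05 in edgeR's quasi-likelihood test with Benjamini-Hochberg adjustment, in either direction, and neither did any of the 18375 genes tested (0% higher and 0% lower in Cbfb(het)). At an unadjusted p under 0.05, 1 member (Col26a1, 2.33% of members) was counted, against 3.27% of all genes. DESeq2 and limma-voom also called no gene, with 1122 and 468 genes and 3 and 2 members at an unadjusted p under 0.05. The 13 Cbfb(het) tumors were fully separated from the 3 Cbfb(wt) tumors in level for 0 members, against 0.19% of all genes. The replicates are tumors of separate mice, per the series design. These p-values therefore set the difference between groups against the spread between these tumors, with 3 tumors in Cbfb(wt).

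By size, 29 of the 43 log2 fold changes (Cbfb(het) minus Cbfb(wt)) were positive and 14 negative, with a median of 0.40, against a median of 0.02 and 52.2% positive over all genes. That median rested on single tumors: it was 1.57 without Cbfb(wt) 2 and -0.02 without Cbfb(het) 10/14. Type I and III genes had values well inside their error, 0.60 ± 1.64 (SE) for Col1a1 and 0.41 ± 1.55 for Col3a1, and Col4a1 had -0.48 ± 0.77. The smallest p-values toward lower levels in Cbfb(het) belonged to Col26a1, at -2.59 ± 1.02, Col4a6, at -1.27 ± 0.61, and Col4a5, at -0.92 ± 0.51. Toward higher levels they belonged to Col10a1, at 4.33 ± 2.18, Col9a1, at 2.34 ± 1.26, and Col6a4, at 2.94 ± 1.66. Each of these 6 had an adjusted p of 0.997 by edgeR's quasi-likelihood test. Single tumors set several of these values: without Cbfb(wt) 3, Col26a1 was at 3.20, without Cbfb(het) 12, Col10a1 was at 1.83 and Col6a4 at 1.02, and without Cbfb(wt) 2, Col1a1 was at 4.31, Col3a1 at 4.28, Col4a1 at 1.296, Col4a6 at -0.56 and Col4a5 at -0.35. By class, all 7 cartilage genes had positive values (median 1.40), the 10 basement membrane genes split 5 to 5 (median -0.04), and the 8 fibrillar genes split 5 to 3 (median 0.28), with none called in any class. In Cbfb(wt) 2 the 3 type IX genes and Col2a1 were near 0, as described above, whereas Col11a1, at 22.9 TPM, was highest there of the 3 Cbfb(wt) tumors. Cbfb(wt) 2 was also the highest of the 3 Cbfb(wt) tumors for all 8 fibrillar genes, with Cbfb(wt) 3 the lowest for all 8. The Cbfb(wt) tumors differed among themselves by a median of 13.2-fold, highest over lowest TPM, for the 39 members that reached 1 TPM in some tumor.

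**Figure D5:**
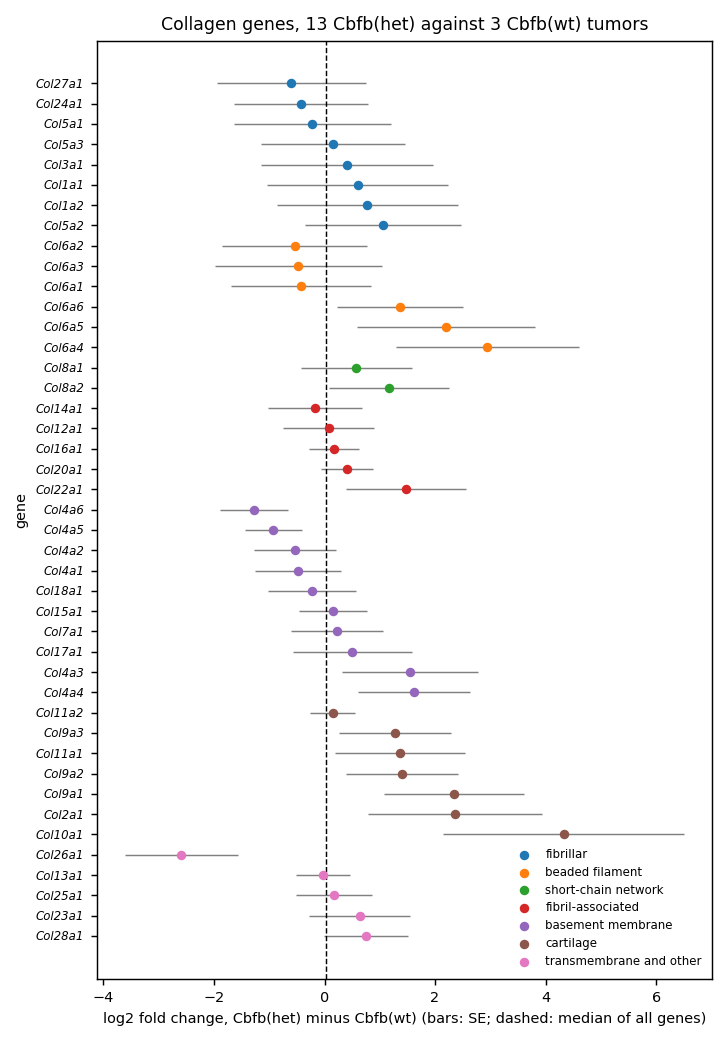
Log2 fold change, Cbfb(het) minus Cbfb(wt), of the 43 tested collagen genes (edgeR, 13 against 3 tumors), with bars for 1 SE and a dashed line at the median of all genes, 0.02. All 7 cartilage genes lie to the right of 0 and Col26a1 lies farthest to the left, and none passed an adjusted p of 0.05.

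The Cbfb(homo) tumor was a single sample, so it has no test. On log2 CPM it lay above all other tumors for 3 of 43 members (6.98%), Col15a1, Col16a1 and Col13a1, against 4.54% of all genes, and below all others for 1 (2.33%), Col25a1, against 3.66% of all genes. On the TPM scale 2 members lay above and 0 below: Col16a1 ranked second behind Cbfb(het) 12 at 392 TPM, and Col25a1, at 0.39 TPM, stood beside Cbfb(het) 10/14 at 0.385 TPM. Its collagen sum of 4931 TPM was the fifth highest, its basement membrane sum of 1659 TPM ranked 2 of 17, and its cartilage sum of 70.9 TPM ranked 15. This tumor ranked second of 17 by TPM for Col4a1, Col4a2, Col4a4, Col7a1, Col17a1, Col6a4, Col6a6, Col10a1, Col16a1 and Col20a1. Of these, Col4a4 and Col6a6 stayed under 1 TPM everywhere. The share of all genes with that rank was not counted. Its log2 CPM exceeded the mean of the Cbfb(wt) tumors for 38 of 43 members, with a median difference of 1.43, and the mean of the Cbfb(het) tumors for 35 of 43, with a median of 1.09. Over all genes those medians were 0.01 and 0.01, and the share of all genes above either mean was not counted. In a mean of logs a very low tumor weighs heavily, and Cbfb(wt) 3 was the lowest Cbfb(wt) tumor for 26 of 39 members. Against the mean TPM of Cbfb(wt), the direction differed between genes. Cbfb(homo) was lower for Col1a1 (668 against 754) and Col3a1 (565 against 744), and higher for Col4a1 (469 against 211) and Col7a1 (311 against 104). Cbfb(homo) also had the highest sum of the 10 endothelial markers, 281 TPM against at most 230 elsewhere. Its sum of the 10 pericyte and smooth muscle markers, 844 TPM against at most 549 elsewhere, was the highest too. In Cbfb(wt) 1, 2 and 3 these sums were 101, 197 and 55.8 TPM and 147, 214 and 92.4 TPM. The most abundant marker was Pecam1 in the endothelial list and Tagln in the other. In Cbfb(homo), Tagln alone held 558 of the 844 TPM. That tumor also had the highest sum of basal and myoepithelial markers, as given above. The part of these lists in the basement membrane levels was not tested.

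Genes that fold, export and bind collagen gave no calls between Cbfb(het) and Cbfb(wt) either. Of the 19 genes for folding and hydroxylation, all 19 were tested and 0 passed in edgeR's quasi-likelihood test, with 11 positive and 8 negative log2 fold changes and a median of 0.09. P4hb, a subunit of prolyl 4-hydroxylase and the most abundant of them, was at 405, 489 and 1088 TPM in Cbfb(het), at 513, 1089 and 497 TPM in Cbfb(wt) and at 881 TPM in Cbfb(homo). Ppib, an isomerase of collagen proline bonds with the smallest p of its list, was at 367, 496 and 834 TPM in Cbfb(het), at 431, 584 and 432 TPM in Cbfb(wt) and at 619 TPM in Cbfb(homo), with a log2 fold change of 0.29 ± 0.17. Both genes spanned far less than the fibrillar collagens did.

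Of the 21 genes for secretion, processing and cross-linking, 20 were tested and 0 passed, with 11 positive and 9 negative values and a median of 0.02. Sparc, a collagen-binding glycoprotein and the most abundant, was at 164, 537 and 6174 TPM in Cbfb(het), at 368, 3544 and 171 TPM in Cbfb(wt) and at 1954 TPM in Cbfb(homo). Fmod, a fibril-binding proteoglycan with the smallest p of its list, was at 1.36, 7.38 and 1034 TPM in Cbfb(het), at 3.69, 3.40 and 0.92 TPM in Cbfb(wt) and at 22.9 TPM in Cbfb(homo), with a log2 fold change of 5.22 ± 2.52 by edgeR. The Fmod peak lay in Cbfb(het) 10/14, and without that tumor the value was 2.25. The summed level of this list was highest in the tumors richest in collagen, at 9785 TPM in Cbfb(het) 10/14, 7553 in Cbfb(het) 12 and 6465 in Cbfb(wt) 2. Sparc alone held 6174 TPM of that sum in Cbfb(het) 10/14 and 3544 TPM in Cbfb(wt) 2. Lum and Dcn stood both in this list and among the fibroblast markers, so the lists were not independent.

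Of the 12 collagen receptors and uptake genes, 11 were tested and 0 passed, with 3 positive and 8 negative values and a median of -0.08. Itgb1, the shared beta chain of the collagen-binding integrins and the most abundant, was at 101, 209 and 585 TPM in Cbfb(het), at 238, 443 and 184 TPM in Cbfb(wt) and at 374 TPM in Cbfb(homo). Ddr2, a receptor kinase for fibrillar collagen with the smallest p of its list, was at 0.56, 3.42 and 72.4 TPM in Cbfb(het), at 1.66, 84.0 and 0.67 TPM in Cbfb(wt) and at 5.82 TPM in Cbfb(homo). Its log2 fold change of -1.12 ± 1.18 was 3.31 without Cbfb(wt) 2. The Cbfb(het) and Cbfb(wt) ranges overlapped for all 6 pathway genes given here.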

How the data were processed

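Bulk RNA of 18 tumors was measured with a stranded mRNA kit, per the labels' protocols. The authors deposited 1 gene table per library with expected counts and TPM, per the file headers. An expected count is RSEM's estimate of a gene's reads, with reads that match several genes shared out, with no scaling. TPM, also from the authors, divides by gene length and fixes the total, so depth is lost. Tools in the submitters' processing notes are STAR 2.7.0f and RSEM 1.3.1, on mm10. The strand setting, like the annotation release, is not given in the sources used here. Each of the 55450 gene IDs occurs in GENCODE M21, which gave the positions.

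Expected counts, 15.6% to 17.0% of them not whole among genes above 0, were rounded. The near-identical libraries were replaced by their mean. For Cbfb(het) against Cbfb(wt), edgeR 4.0.16 (R 4.3.3) was run with filterByExpr, TMM factors and the robust quasi-likelihood F-test, without covariates, and Benjamini-Hochberg adjustment over 18375 genes at a threshold of 0.05. The Cbfb(homo) tumor entered no such test. Log2 CPM used TMM factors and a prior count of 2, and plots used log2(TPM + 1). Correlations used scipy 1.17.1 and 100000 permutations. The gene test was also run on simulated counts that gave every gene the same dispersion. Its power for the collagen genes, which varied more than most genes, was not tested. Libraries held 33210207 to 40974130 rounded expected counts.

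Alternatives were DESeq2 1.42.0, limma-voom (limma 3.58.1), no filter, the near-identical libraries kept as 2, all genotypes in 1 fit, each tumor left out, TPM or summed CPM as the scale, and Cbfb(het) tumors alone for correlations. Leaving out each tumor for correlations and the TPM scale for Cbfb(homo) were added after seeing the data. Members, classes, pathway and marker lists were chosen with earlier results of these data known. Values per tumor were given for the 3 most abundant members of each class, for members reaching 10 TPM and 10 times their median, and for the 3 smallest p-values in each direction; in each pathway list, for the smallest p and the most abundant gene. Col4a2, Col4a3, Col4a4, Col6a5, Col9a2, Col11a2, Col15a1, Col17a1 and the other low members were named after their values were seen. Promoter windows came from RefSeq's table for GRCm38.p6.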

Additional observations from a re-analysis of the deposited data

How the results depend on the processing

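No member was called in any of the 21 alternatives. Over all genes, 1 was called with all genotypes in 1 fit: Tex11, at an adjusted p of 0.047 by edgeR, with 3049 counts in Cbfb(wt) 2 and at most 3 elsewhere. The median member fold change (log2, main value 0.40) ran from -0.02 to 1.57 as tumors were left out, with 0.12 without Cbfb(wt) 3. Fold changes changed sign for Col26a1 (0.26 by limma-voom), Ddr2 (0.20 by limma-voom) and Col1a1 (-1.48 by DESeq2), and the cause was not tested. Leaving out single tumors gave -3.17 to 3.20 for Col26a1, -0.23 to 4.31 for Col1a1, -0.25 to 4.28 (-0.17 without Cbfb(wt) 3) for Col3a1, -0.98 to 1.296 for Col4a1 and -1.69 to 3.31 for Ddr2. The highest of these came without Cbfb(wt) 3 for Col26a1 and without Cbfb(wt) 2 for the other 4 genes. The correlation of Col11a1 and Col11a2 ran from -0.0373, without Cbfb(het) 10/14, to 0.326. On TPM, 0 members lay lowest in Cbfb(homo). The summed collagen span was 54.6-fold on CPM. On that scale Cbfb(wt) 3 was the lowest tumor, at rank 17, with Cbfb(het) 7 at rank 16. Cbfb(het) 13 moved from rank 10 on TPM to rank 14, and the 5 richest tumors kept their ranks. Col9a1 and Col9a2 had r = 0.459 (adjusted permutation p = 0.134) and Col9a1 and Col9a3 r = 0.298 (adjusted permutation p = 0.328) in Cbfb(het) tumors alone.

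No paired analysis was possible because the replicate numbers follow accession order and the labels pair no tumors. The 3 Cbfb(wt) tumors and the single Cbfb(homo) tumor limit the precision of every genotype comparison, and members under 1 TPM rest on few counts.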
